A study of Mus musculus with 6 samples.

Results

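Described here are 10 genes of glycolysis across the cell classes of the adult mouse brain: the hexokinases Hk1 and Hk2, the phosphofructokinases Pfkp and Pfkm, the aldolases Aldoa and Aldoc, the phosphoglycerate kinase Pgk1, the pyruvate kinase Pkm and the lactate dehydrogenases Ldha and Ldhb. They were taken by symbol from the 32285 genes of the deposited count tables, and all 10 were found. Cells without CD45 had been sorted for single-cell sequencing, either as endothelial cells that carry CD31 and lack Glast, or as neural stem and progenitor cells that carry Glast and lack CD31. The sorted tissue was cortex and subventricular zone of mice aged 8 to 12 weeks. The 3 groups of 2 libraries were Cx43ECiKO (here ECiKO, titled Vecad in the labels), Cx43GlastiKO (here GlastiKO, titled Glast) and Cx43flox/flox (here control). Cx43 is connexin 43, the gap junction protein encoded by Gja1. The labels used here give neither the Cre line, the inducing agent, the deleted stretch of Gja1 nor the number of mice in a library, and they call the 2 libraries of a group biological replicates. In each group the library numbered 1 held mostly endothelial-like cells and the library numbered 2 mostly glia, and the labels leave out which sorted fraction went into which library. Replicate and sorted fraction therefore cannot be told apart. Where libraries shared mice, p-values would measure only the spread between these samples.

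Glycolysis splits glucose into pyruvate in the cytosol, and lactate dehydrogenase exchanges pyruvate and lactate. Several of its steps are carried by isoenzymes of different genes. The A form of lactate dehydrogenase is known for turning pyruvate into lactate, and the B form is known from heart and other tissues that use lactate. Aldoc, also called zebrin II, is the brain form of aldolase and is known from astrocytes and Purkinje cells.

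Cells were assigned to classes by lists of marker genes that hold none of the 10 genes, and each class is called by its markers with "-like". UMIs (unique molecules, each counted once at its 3′ end whatever the length of the transcript) were summed over the cells of a class in a library and scaled to CPM, UMIs per 1000000 UMIs of that sum. A sum of at least 20 cells was used for tests. Endothelial-like cells reached this in all 6 libraries, with 378 and 20 cells in ECiKO, 439 and 63 in GlastiKO and 697 and 45 in control replicates 1 and 2. Astroglial-like cells reached it in the libraries numbered 2 alone, with 148 cells in ECiKO, 403 in GlastiKO and 402 in control. Oligodendrocyte-like cells, which the sort as labelled does not name, did so in the same libraries with 1922, 598 and 447 cells. Class tests compared classes within libraries, so both glial classes were set mainly against the endothelial-like sums of 20, 63 and 45 cells. Pericyte-like cells came from GlastiKO replicates 1 and 2 and control replicate 1, with 21, 23 and 28 cells, and choroid plexus-like cells from ECiKO replicate 2 alone, with 53 cells.

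Whole libraries held 1735247 to 14859187 UMIs, and the summed endothelial-like cells held 37322 UMIs at the least (ECiKO replicate 2) and 2466847 at the most (control replicate 1). Pairs of libraries shared 5 cell barcodes. The 14 endothelial markers summed to 26688 to 31729 CPM in the endothelial-like cells, against 7.65 to 11.6 CPM in astroglial-like cells. The 15 astroglial markers summed to 23192 to 24401 CPM in the astroglial-like cells, against 36.8 to 193 CPM in endothelial-like cells. Gja1 was not lower in either knockout: among endothelial-like cells it had 221 and 214 CPM where the label is ECiKO, 139 and 130 CPM where it is GlastiKO and 90.8 and 109 CPM in control. In astroglial-like cells Gja1 had 2584 CPM in ECiKO, 2535 CPM in GlastiKO and 2549 CPM in control. The deleted stretch is not given, so whether these 3′ counts can check the deletion is not known, and groups are named by their labels throughout.

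The classes differed in which isoenzyme gene they held. Astroglial-like cells carried the aldolase pair mostly as Aldoc and the lactate dehydrogenase pair mostly as Ldhb. Endothelial-like cells carried Aldoa and Ldha, with Aldoc and Ldhb near 0. Oligodendrocyte-like cells combined Aldoa with Ldhb, and pericyte-like cells combined Aldoa with both lactate dehydrogenases.

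**Figure D1:**
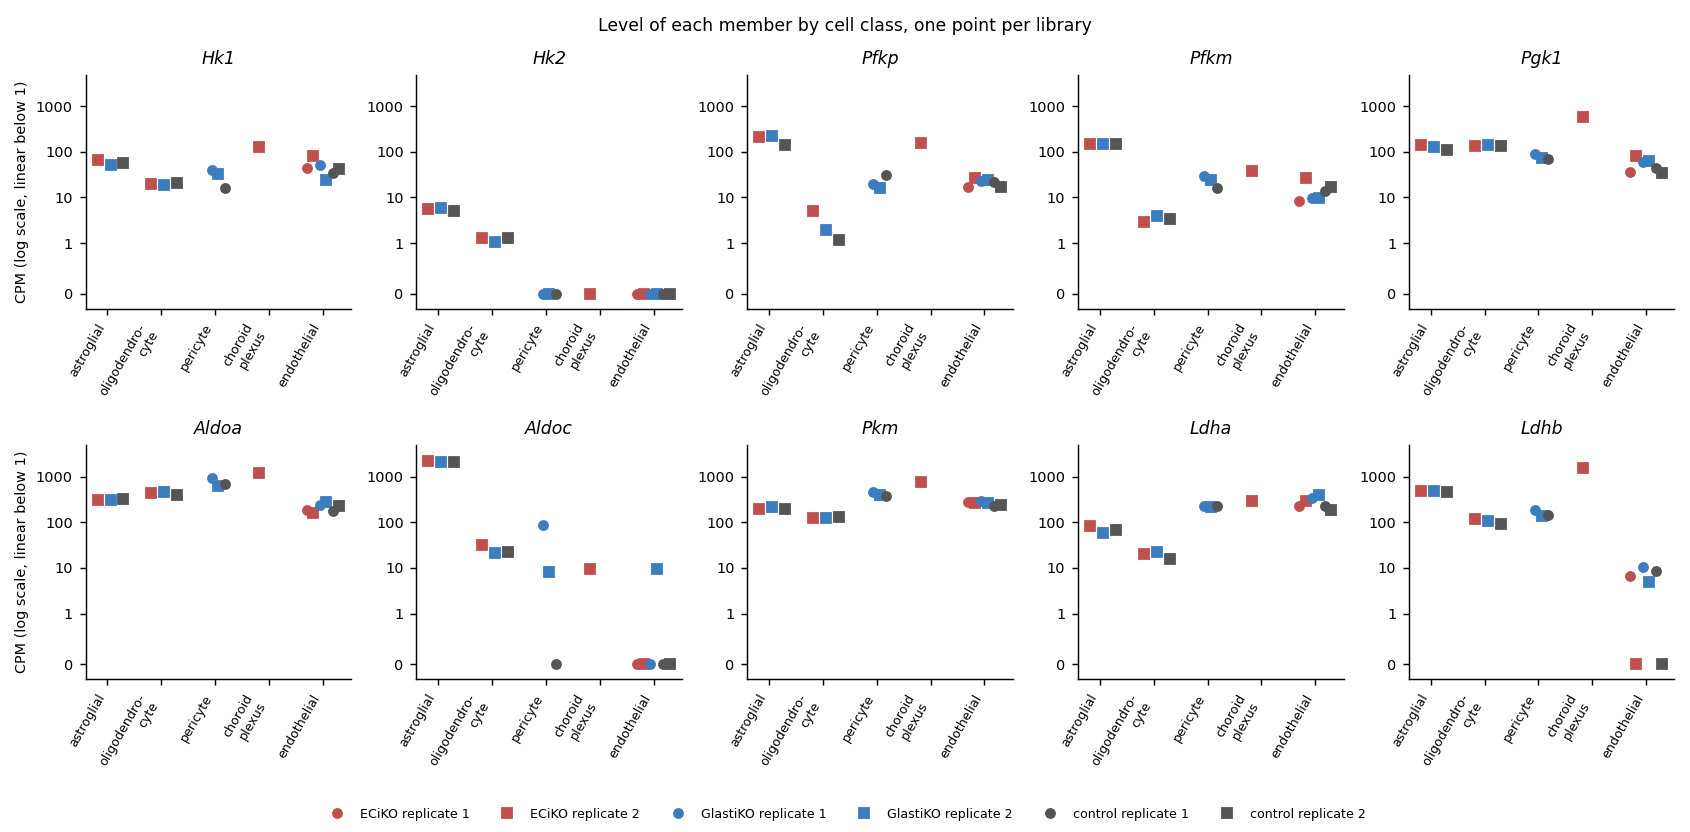
Level of each of the 10 genes in CPM (y axis, logarithmic above 1 and linear below) in 5 cell classes (x axis), with 1 point per library and at least 20 cells behind each point. Aldoc lies at 2080 to 2195 CPM in astroglial-like cells and at 0 in 5 of 6 endothelial-like sums, while Ldhb lies at 10.4 CPM or less in endothelial-like cells and at 92.4 CPM or more in the other classes.

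Aldolase splits fructose 1,6-bisphosphate into 2 triose phosphates. Aldoc (chr11:78322968-78327781 of mm10, plus strand) had 2195 CPM in astroglial-like cells of ECiKO, 2160 CPM in those of GlastiKO and 2080 CPM in those of control. In oligodendrocyte-like cells of the same libraries it had 32.0, 21.2 and 22.2 CPM. In endothelial-like cells Aldoc had 0 UMIs in 5 of 6 libraries and 2 UMIs in GlastiKO replicate 2. The astroglial-like values lay far above both others, while the counting intervals of oligodendrocyte-like and endothelial-like cells overlap in each of the libraries numbered 2. Within GlastiKO replicate 2 the astroglial-like level was 224 times the endothelial-like level of 2 UMIs, with a 95% interval of counting error from 61.9 to 1847. Against a floor of 3 counts in that library's sum, it was at least 27.3-fold higher in ECiKO replicate 2 and at least 82.5-fold higher in control replicate 2. The edgeR quasi-likelihood test on all genes called Aldoc higher in astroglial-like than in oligodendrocyte-like cells (log2 fold change 6.22 ± 0.23 SE, adjusted p = 1.85e-62).

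Oligodendrocyte-like Aldoc was 0.982% to 1.46% of the astroglial-like level of the same library. The 15 astroglial markers, summed in oligodendrocyte-like cells, stood at 0.529% to 1.36% of their astroglial-like level. The 2 ranges overlap, and the part of astroglial RNA in the oligodendrocyte-like Aldoc was not tested. Among cells thinned to 1000 UMIs, Aldoc was detected in 76.0%, 74.4% and 70.6% of astroglial-like cells of ECiKO, GlastiKO and control. It was detected in 2.16%, 1.51% and 1.85% of oligodendrocyte-like cells of these libraries and in 0 of 321, 12, 413, 55, 650 and 41 endothelial-like cells of ECiKO, GlastiKO and control replicates 1 and 2. Taken as 3 counts of the total, a count of 0 among the 650 cells of control replicate 1 allows up to 0.462% of cells with an Aldoc UMI at that depth, which limits detection and not expression. Unthinned, these shares were 84.5%, 91.3% and 87.8% in astroglial-like cells and 5.46%, 24.2% and 24.8% in oligodendrocyte-like cells, whose median depths were 774, 17532.5 and 15789 UMIs, beside 1044, 4569 and 3753.5 UMIs in astroglial-like and 1122 to 3384 UMIs in endothelial-like cells. The thinning kept 75 of 148, 394 of 403 and 388 of 402 astroglial-like cells of these libraries, since shallower cells were left out.

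Aldoa (chr7:126795234-126800751, minus strand), the form known from muscle and red blood cells, had another order among the 4 classes, with pericyte-like cells highest and endothelial-like cells lowest. It had 304, 318 and 335 CPM in astroglial-like cells of ECiKO, GlastiKO and control and 452, 471 and 405 CPM in oligodendrocyte-like cells. Pericyte-like cells held 921 and 642 CPM in GlastiKO replicates 1 and 2 and 687 CPM in control replicate 1. Endothelial-like cells were lowest, with 186 and 161 CPM in ECiKO, 241 and 275 CPM in GlastiKO and 180 and 227 CPM in control. The 4 classes did not overlap. Aldoa was lower in astroglial-like than in oligodendrocyte-like cells (edgeR, log2 fold change -0.69 ± 0.17 SE, adjusted p = 0.000189). It was higher than in endothelial-like cells in the astroglial-like (0.78 ± 0.22), oligodendrocyte-like (1.47 ± 0.21) and pericyte-like cells (1.66 ± 0.20), each called by edgeR at an adjusted p of at most 0.00213.

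Aldoc therefore made up 87.8%, 87.2% and 86.1% of the aldolase UMIs in astroglial-like cells of ECiKO, GlastiKO and control, a mean of 87.0% ± 0.85 (SD, n = 3). Its share was 6.61%, 4.31% and 5.20% in oligodendrocyte-like cells of these libraries. The share was 0 to 3.39% in endothelial-like cells, over the 5 libraries with at least 20 aldolase UMIs. The sum of both aldolases was 2464 ± 44.1 CPM in astroglial-like cells, 468 ± 35.3 in oligodendrocyte-like cells, 782 ± 198 in pericyte-like cells (SD, n = 3 each) and 213 ± 46.2 in endothelial-like cells (SD, n = 6). In pericyte-like cells Aldoc reached 88.2 CPM in GlastiKO replicate 1, 8.23 CPM in GlastiKO replicate 2 and 0 in control replicate 1. All 9 UMIs of the first of these came from 1 of 21 cells.

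Lactate dehydrogenase had a different division. Ldha (chr7:46841475-46855627, plus strand) had 84.5, 57.9 and 67.3 CPM in astroglial-like cells of ECiKO, GlastiKO and control, and 20.5, 22.8 and 16.1 CPM in oligodendrocyte-like cells. Pericyte-like cells held 225 and 214 CPM in GlastiKO and 229 CPM in control replicate 1. Endothelial-like cells held 230 and 295 CPM in ECiKO, 339 and 401 CPM in GlastiKO and 231 and 185 CPM in control. The glial classes lay below every vessel sum, and the pericyte-like values lay inside the endothelial-like range. Ldha was lower than in endothelial-like cells in astroglial-like cells (edgeR, log2 fold change -1.92 ± 0.23 SE, adjusted p = 5.38e-13) and in oligodendrocyte-like cells (edgeR, -3.46 ± 0.23, adjusted p = 6.76e-31). The astroglial-like Ldha level was 14.4% to 36.4% of the endothelial-like level of the same library, beside 0.0249% to 0.0365% for the 14 endothelial markers. The part of endothelial RNA in the astroglial-like Ldha was not tested.

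Ldhb (chr6:142490249-142507957, minus strand) had 485, 493 and 468 CPM in astroglial-like cells of ECiKO, GlastiKO and control and 119, 105 and 92.4 CPM in oligodendrocyte-like cells. Pericyte-like cells held 186 and 140 CPM in GlastiKO and 142 CPM in control replicate 1. In endothelial-like cells it had 6.68 and 0 CPM in ECiKO, 10.4 and 4.83 CPM in GlastiKO and 8.51 and 0 CPM in control, from 46 UMIs in all. Every endothelial-like value was under every value of the other classes. The libraries numbered 2, on which the glial contrasts mainly rest, held 0, 1 and 0 of these UMIs in ECiKO, GlastiKO and control. Compared with endothelial-like cells, Ldhb was higher in astroglial-like (edgeR, log2 fold change 6.38 ± 0.37 SE, adjusted p = 2.61e-37), oligodendrocyte-like (4.40 ± 0.42) and pericyte-like cells (4.13 ± 0.38). Oligodendrocyte-like Ldhb was 19.8% to 24.5% of the astroglial-like level of the same library, beside 0.529% to 1.36% for the astroglial markers. The part of astroglial RNA in the oligodendrocyte-like Ldhb was not tested.

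The Ldhb share of lactate dehydrogenase UMIs was 85.1%, 89.5% and 87.4% in astroglial-like cells of ECiKO, GlastiKO and control, and 85.3%, 82.2% and 85.2% in oligodendrocyte-like cells. It was 45.2%, 39.5% and 38.3% in the 3 pericyte-like sums and 0 to 3.56% in 5 endothelial-like sums. Choroid plexus-like cells of ECiKO replicate 2 stood at 84.0%, with an exact binomial (Clopper-Pearson) interval from 79.9% to 87.5%. The pair together had 552 ± 17.1 CPM in astroglial-like, 125 ± 15.6 in oligodendrocyte-like and 379 ± 29.6 in pericyte-like cells (SD, n = 3 each) and 285 ± 81.7 in endothelial-like cells (SD, n = 6). Over libraries, the two-sided exact permutation test of the share between astroglial-like and endothelial-like cells gave p = 0.0357, the smallest that 3 against 5 sums allow, for both aldolase and lactate dehydrogenase. The 18 such comparisons of shares had adjusted p-values from 0.129 to 0.5, so none passed 0.05. With 3 sums against 3 the smallest possible p is 0.1.

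**Figure D2:**
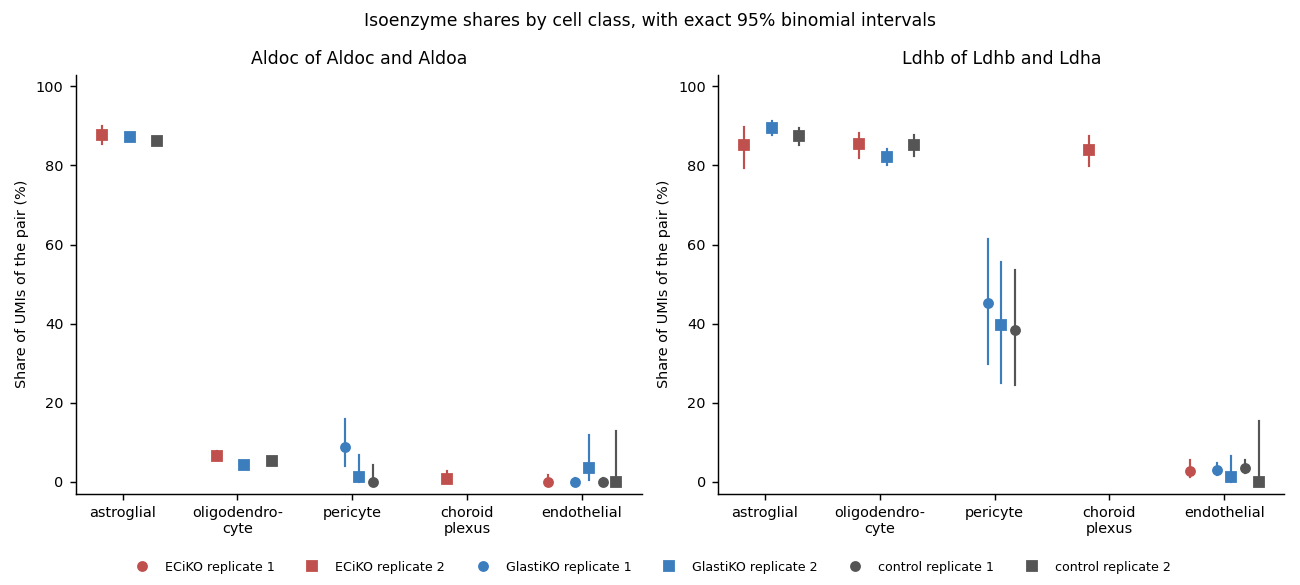
Share of Aldoc among aldolase UMIs (left) and of Ldhb among lactate dehydrogenase UMIs (right), in percent, by cell class (x axis), with 1 point per library and vertical lines for exact 95% binomial intervals of counting error. Astroglial-like cells lie above 85% in both panels, oligodendrocyte-like cells at 82.2% to 85.3% for Ldhb and 4.31% to 6.61% for Aldoc, pericyte-like cells at 38.3% to 45.2% for Ldhb, and endothelial-like cells at 3.56% or less in both.

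The start regions of the lactate dehydrogenase genes are shown because Ldhb led in glial and Ldha in endothelial-like cells. Each window runs from 250 bases before to 50 bases after a RefSeq transcript start (GRCm38.p6). The capitals mark the letters ACGTG and their reverse complement CACGT, searched on both strands. ACGTG is a form of the core of the hypoxia response element. The other form, GCGTG, was not searched, and its letters occur unmarked in both sequences below. CACGTG, a known E-box, holds ACGTG and CACGT at once. RefSeq gives 2 windows for Ldha, of which 1 holds the letters and is shown. The Ldha window (chr7:46845554-46845853, plus strand) has 5 matches in 3 stretches, and the Ldhb window (chr6:142507908-142508207, minus strand) has 0. The letters occur in 19.6% of 32851 such windows, and a match is a description of the sequence, not a bound site. Among the other members, they occur in 1 of 2 windows of Hk1, 1 of 1 of Hk2 and 0 of 1 of Pfkp. They occur in 2 of 4 windows of Pfkm, 2 of 3 of Aldoa and 1 of 2 of Aldoc. Pgk1 has them in 1 of 1 window and Pkm in 1 of 2, so the pair shown does not stand for all 10 genes.
Ldha: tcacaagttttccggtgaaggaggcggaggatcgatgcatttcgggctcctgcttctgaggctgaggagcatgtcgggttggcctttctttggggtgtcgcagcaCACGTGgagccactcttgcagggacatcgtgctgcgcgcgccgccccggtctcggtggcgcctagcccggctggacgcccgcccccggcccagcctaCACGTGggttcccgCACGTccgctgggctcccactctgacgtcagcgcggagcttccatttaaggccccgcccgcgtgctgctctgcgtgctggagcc
Ldhb: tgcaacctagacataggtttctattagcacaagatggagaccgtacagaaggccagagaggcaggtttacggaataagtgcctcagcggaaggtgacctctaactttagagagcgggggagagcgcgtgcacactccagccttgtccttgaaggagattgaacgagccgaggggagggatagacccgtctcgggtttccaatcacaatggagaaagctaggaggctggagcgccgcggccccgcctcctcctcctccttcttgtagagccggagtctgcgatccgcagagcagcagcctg

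Hexokinase and phosphofructokinase stand at the entry of the pathway and at its main control point. Hk1, the common brain hexokinase, had 67.6, 51.6 and 55.7 CPM in astroglial-like cells of ECiKO, GlastiKO and control and 20.2, 18.6 and 20.4 CPM in oligodendrocyte-like cells (edgeR, log2 fold change 1.30 ± 0.19 SE, adjusted p = 3.84e-10). In endothelial-like cells it had 43.4 and 80.4 CPM in ECiKO, 52.9 and 24.2 CPM in GlastiKO and 34.5 and 42.0 CPM in control. This range holds all astroglial-like values only through the 80.4 CPM of ECiKO replicate 2, which rests on 3 UMIs. The other endothelial-like sums reached at most 52.9 CPM, above the astroglial-like value of GlastiKO alone. Hk2 had 23 UMIs in astroglial-like cells (4.96 to 5.74 CPM) and 25 in oligodendrocyte-like cells (1.04 to 1.31 CPM). It had 0 UMIs in all 6 endothelial-like sums, and in the deepest of these, control replicate 1, a count of 0 allows up to 1.22 CPM. Hk2 did not pass the filter on low counts and was not tested.

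Pfkp (chr13:6579768-6648777, minus strand) and Pfkm (chr15:98092589-98132451, plus strand), the platelet and muscle forms of phosphofructokinase, were both high in astroglial-like cells. Pfkp had 217, 228 and 143 CPM in astroglial-like cells of ECiKO, GlastiKO and control, against 4.99, 1.98 and 1.15 CPM in oligodendrocyte-like cells. Pfkm had 147, 152 and 149 CPM in the astroglial-like cells and 2.89, 3.96 and 3.44 CPM in the oligodendrocyte-like cells. Endothelial-like cells lay between them, at 16.7 to 26.8 CPM for Pfkp and 8.35 to 26.8 CPM for Pfkm. Both values of 26.8 CPM rest on 1 UMI in ECiKO replicate 2, under the floor of 3 counts. In endothelial-like cells of GlastiKO and control replicate 2, Pfkp had 5 and 2 UMIs and Pfkm 2 and 2. The values of the 3 classes did not overlap for either gene. Against oligodendrocyte-like cells the edgeR log2 fold changes were 6.17 ± 0.22 SE for Pfkp (adjusted p = 4.53e-64) and 5.15 ± 0.21 for Pfkm (adjusted p = 2.53e-56). Against endothelial-like cells they were 3.48 ± 0.39 and 3.66 ± 0.44, both called. Pfkp was lower in oligodendrocyte-like than in endothelial-like cells (edgeR, -2.70 ± 0.68, adjusted p = 0.000405), a call lost without GlastiKO replicate 2 (adjusted p = 0.117). Pfkm was not called in that contrast with edgeR (-1.49 ± 0.70, adjusted p = 0.0673) but was called lower with DESeq2 (-1.60, adjusted p = 0.0295). Pfkl, the liver form and no member of the 10, was highest in pericyte-like cells (145 ± 35.9 CPM, SD, n = 3), with 73.8 ± 12.1 CPM in endothelial-like cells (n = 6), 30.7 ± 7.64 in astroglial-like and 13.5 ± 2.17 in oligodendrocyte-like cells (n = 3 each).

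Pgk1 and Pkm carry the ATP-forming steps. Their astroglial-like levels were closer to the oligodendrocyte-like and endothelial-like levels than those of Pfkp and Pfkm. Pgk1 had 141, 129 and 109 CPM in astroglial-like cells of ECiKO, GlastiKO and control, 134, 145 and 138 CPM in oligodendrocyte-like cells and 33.6 to 80.4 CPM in endothelial-like cells. It was higher in both glial classes than in endothelial-like cells (edgeR, log2 fold change 1.44 ± 0.31 SE, adjusted p = 3.63e-05 for astroglial-like, and 1.83 ± 0.30, adjusted p = 2.31e-08 for oligodendrocyte-like). Between the glial classes Pgk1 was lower in astroglial-like cells at an edgeR adjusted p of 0.0156, but the values overlap and the call was lost with DESeq2 size factors (adjusted p = 0.441). Pkm, whose splice forms a 3′ count does not separate, had 194 to 213 CPM in astroglial-like, 122 to 133 in oligodendrocyte-like, 387 to 470 in pericyte-like and 233 to 301 CPM in endothelial-like cells. Pkm was higher in astroglial-like than in oligodendrocyte-like cells (edgeR, 0.45 ± 0.17, adjusted p = 0.0110), a call lost without control replicate 2 (adjusted p = 0.0596) or GlastiKO replicate 2 (0.103). The astroglial-like values were below every endothelial-like value, but edgeR made no call (log2 fold change -0.10 ± 0.22 SE, adjusted p = 0.762), and the sign turned with DESeq2 size factors (0.09). Pkm was lower in oligodendrocyte-like than in endothelial-like cells (edgeR, -0.55 ± 0.21, adjusted p = 0.0252), a call lost without control replicate 2 (adjusted p = 0.0713) or GlastiKO replicate 2 (0.374).

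Counted together, 9 of the 10 genes were tested between classes. Set against endothelial-like cells, astroglial-like cells had 6 of these higher and 1 lower, where edgeR called 22.5% of all 11814 genes higher and 19.8% lower. Against oligodendrocyte-like cells 7 were higher and 2 lower in astroglial-like cells (37.3% and 32.3% of all genes). In oligodendrocyte-like against endothelial-like cells 4 were higher and 3 lower (25.4% and 22.4%), Aldoc among the higher ones with edgeR but not with DESeq2 (adjusted p = 0.170). In pericyte-like against endothelial-like cells 4 were higher and 0 lower (12.3% and 16.9%). The 4 in pericyte-like cells were Aldoa, Ldhb, Pkm (edgeR, 0.58 ± 0.20, adjusted p = 0.0185) and Aldoc, whose call ended without GlastiKO replicate 1 (adjusted p = 0.925), the library of the single Aldoc-rich cell. Leaving out GlastiKO replicate 1, GlastiKO replicate 2 or control replicate 1 ended the Pkm call as well (edgeR adjusted p = 0.0525, 0.0930 and 0.1). The median log2 fold change of the 9 was 1.44 in astroglial-like against endothelial-like cells, beside 0.11 over all genes, and 1.54 against oligodendrocyte-like cells, beside 0.09. With DESeq2 size factors the medians over all genes moved to 0.29 and 0.34. The sum of all 10 genes was 3753 ± 125 CPM in astroglial-like, 886 ± 45.7 in oligodendrocyte-like and 1734 ± 289 in pericyte-like cells (SD, n = 3 each), and 899 ± 137 CPM in endothelial-like cells (SD, n = 6). Choroid plexus-like cells of ECiKO replicate 2 summed to 4776 CPM, led by Ldhb at 1559 CPM and Aldoa at 1223 CPM.

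Other genes of the pathway were read from lists chosen, like the members, with earlier results of these data known. Of 17 other glycolysis enzymes 6 were tested, and astroglial-like cells had 5 higher and 1 lower than endothelial-like cells, beside 22.5% and 19.8% of all genes. Gapdh (log2 fold change 2.15 ± 0.23 SE), Eno1 (1.78 ± 0.24) and Tpi1 (1.33 ± 0.25) rose and Pfkl fell (-1.10 ± 0.34), by edgeR at adjusted p of at most 0.00464. In oligodendrocyte-like cells Gapdh was higher (2.32 ± 0.22) and Eno1 lower (-0.82 ± 0.27) than in endothelial-like cells. Eno1 averaged 357 ± 29.2 CPM in astroglial-like and 50.8 ± 6.09 in oligodendrocyte-like cells (SD, n = 3 each), against 104 ± 22.8 CPM in endothelial-like cells (SD, n = 6).

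Slc2a1, Slc16a1 and Bsg, which serve the transport of glucose and lactate, were many times higher in endothelial-like cells than in the glial classes. Of 9 transporter genes 6 were tested, and astroglial-like cells had 2 higher and 3 lower than endothelial-like cells, beside the same 22.5% and 19.8% of all genes. Slc2a1, the glucose transporter GLUT1 of the blood-brain barrier, averaged 148 ± 17.2 CPM in astroglial-like, 84.3 ± 4.43 in oligodendrocyte-like and 29.0 ± 18.0 in pericyte-like cells, against 1913 ± 305 CPM in endothelial-like cells. Slc16a1, the lactate transporter MCT1, averaged 59.8 ± 14.3, 113 ± 7.92 and 0 CPM in these 3 classes, against 733 ± 203 CPM in endothelial-like cells. Bsg (basigin), the chaperone that brings MCT1 to the membrane, averaged 303 ± 39.0, 232 ± 10.6 and 289 ± 59.7 CPM, against 11623 ± 1755 CPM (SD, n = 3 for the first 3 classes and n = 6 for endothelial-like cells in each case). Slc16a7, the lactate transporter MCT2, had 4 UMIs in astroglial-like and 599 in oligodendrocyte-like cells (28.2 ± 0.66 CPM, n = 3). Slc2a3 and Slc2a4, further glucose transporters, had 10 and 8 UMIs in pericyte-like cells (28.4 ± 11.5 and 21.9 ± 15.6 CPM), 17 and 20 in astroglial-like and 2 and 0 in endothelial-like cells.

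Further lists were read between astroglial-like and oligodendrocyte-like cells, where 37.3% of all genes were higher and 32.3% lower. Of 4 tested of 5 genes for fructose 2,6-bisphosphate, the activator of phosphofructokinase, 3 were higher and 0 lower there: Pfkfb4 (edgeR, log2 fold change 3.01 ± 0.25 SE), Pfkfb2 (2.40 ± 0.25) and Pfkfb3 (1.03 ± 0.19). Of 9 tested of 12 genes of gluconeogenesis and glycogen, 7 were higher and 0 lower, beside those 37.3% and 32.3%. They include the glycogen phosphorylases Pygb (216 to 292 CPM in astroglial-like and 10.3 to 11.7 CPM in oligodendrocyte-like cells) and Pygm (99.0 ± 19.3 and 1.33 ± 0.50 CPM, SD, n = 3 each). Pygm averaged 91.1 ± 36.1 CPM in pericyte-like cells (n = 3), against 2.73 ± 3.07 CPM in endothelial-like cells (n = 6; edgeR, 4.85 ± 0.54, adjusted p = 1.76e-14). Of 12 genes that bring pyruvate into mitochondria, all tested, 6 were higher and 3 lower, a split not far from the 37.3% and 32.3% of all genes. The lower ones were Pdk3, a kinase that inhibits pyruvate dehydrogenase (-3.38 ± 0.31), and Mpc1 and Mpc2 of the mitochondrial pyruvate carrier (-1.43 ± 0.17 and -0.88 ± 0.16), each called by edgeR.

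Within the oligodendrocyte-like cells the lactate dehydrogenase genes separated clusters that had been built without any gene of the lists. The 4 clusters described here are cluster 1, with Ptgds and Opalin among its leading genes, cluster 6, with Enpp6 and Trf among its leading genes, and clusters 0 (Ptgds) and 5 (Apod, Klk6), which had over 60 cells in ECiKO replicate 2 alone. In cluster 1 Ldhb had 29.7, 45.2 and 41.8 CPM in ECiKO, GlastiKO and control replicate 2, and Ldha had 25.9, 32.3 and 22.5 CPM. In cluster 6 Ldhb had 244, 229 and 182 CPM and Ldha 4.37, 3.74 and 5.19 CPM. In all 3 libraries, cluster 6 thus held more Ldhb and less Ldha than cluster 1, with counting intervals that do not overlap. The Ldhb share was 98.2%, 98.4% and 97.2% in cluster 6 of ECiKO, GlastiKO and control, and 53.4%, 58.3% and 65.0% in cluster 1. In ECiKO replicate 2, cluster 5 had a share of 98.9% and cluster 0 one of 67.4%. Aldoa differed less, with 354, 401 and 342 CPM in cluster 6 and 457, 510 and 448 CPM in cluster 1. The clusters were made from these cells, so their differences are given as values with no test.

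**Figure D3:**
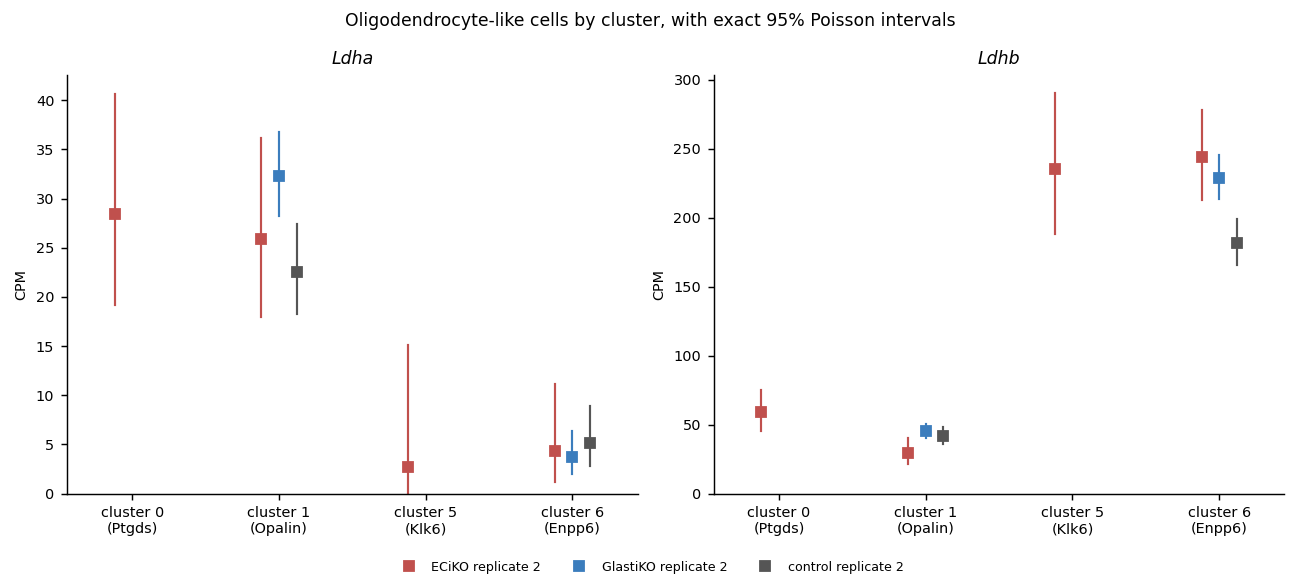
Level of Ldha (left) and Ldhb (right) in CPM (y axis) in 4 clusters of oligodendrocyte-like cells (x axis) of the libraries numbered 2, with exact 95% Poisson intervals of counting error, for sums of at least 60 cells. Clusters 5 and 6 have 182 to 244 CPM of Ldhb and at most 5.19 CPM of Ldha, while clusters 0 and 1 have 29.7 to 58.8 CPM of Ldhb and 22.5 to 32.3 CPM of Ldha.

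Within endothelial-like cells Ldha and Aldoa also varied by cluster. In control replicate 1 Ldha had 298 CPM in cluster 8, led by Klf2, Cldn5 and Itm2a, against 216, 191 and 187 CPM in clusters 2, 3 and 9, and Aldoa had 255 CPM against 139, 102 and 160 CPM. Cluster 16, led by Cxcl12, Flt1 and Adgrl4 with Angpt2 among its 10 leading genes, had over 20 cells in GlastiKO replicate 1 alone, with 589 CPM of Ldha and 371 CPM of Aldoa. Aldoc had 0 UMIs in each of these endothelial-like clusters.

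The comparison of the groups asks how these genes differ between the libraries labelled as connexin 43 knockouts and control. In endothelial-like cells 7 of the 10 genes passed the filter on low counts (not Hk2, Aldoc and Ldhb), and edgeR called 0 of them in either knockout, as did DESeq2. Over all 8602 genes edgeR called 0.0233% higher and 0.186% lower in ECiKO, and 0.093% higher and 0.209% lower in GlastiKO. At an unadjusted p under 0.05 Ldha in GlastiKO alone passed, among 7 genes tested in each knockout. The share of all genes at that unadjusted threshold is not given here, so this is not read as a result. After scaling to the libraries' composition (TMM), Ldha had 375 and 408 CPM in GlastiKO and 246 and 182 CPM in control, from 520 and 83 UMIs and from 569 and 22 UMIs. Both GlastiKO libraries were above both control libraries, and the edgeR log2 fold change was 0.78 ± 0.28 SE with an adjusted p of 0.736 (unadjusted 0.00488). In ECiKO Ldha had 249 and 257 scaled CPM, beside the same 2 control values (edgeR, 0.15 ± 0.30, adjusted p = 1.00).

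In GlastiKO 5 of the 7 tested genes, Pfkp, Aldoa, Pgk1, Pkm and Ldha, had both libraries above both control libraries, and Pfkm had both below. Some of these orders rest on few UMIs: Pfkm had 2 in GlastiKO replicate 2 and 2 in control replicate 2, and Pfkp 5 and 2. Among all genes 14.6% were higher and 14.7% lower in this sense. Aldoa had 267 and 280 scaled CPM in GlastiKO and 192 and 223 in control, and Pkm 332 and 265 against 248 and 240. In ECiKO 2 of 7, Hk1 and Ldha, were higher without overlap and 0 lower, beside 10.9% and 19.0% of all genes. Hk1 had 3 UMIs in ECiKO replicate 2 and 5 in control replicate 2. Ldha had 11 UMIs in ECiKO replicate 2, and its closest libraries were ECiKO replicate 1 at 249 and control replicate 1 at 246 scaled CPM. The median log2 fold change of the 7 was 0.39 in GlastiKO, beside 0.00 over all genes, and -0.06 in ECiKO, beside -0.03. Both comparisons share the control libraries. The 10 immediate early genes, which respond to tissue dissociation, summed to 4701 and 3091 CPM in GlastiKO and 3172 and 5100.5 CPM in control, and to 3098 and 241 CPM in ECiKO. Control and GlastiKO overlap in that sum.

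**Figure D4:**
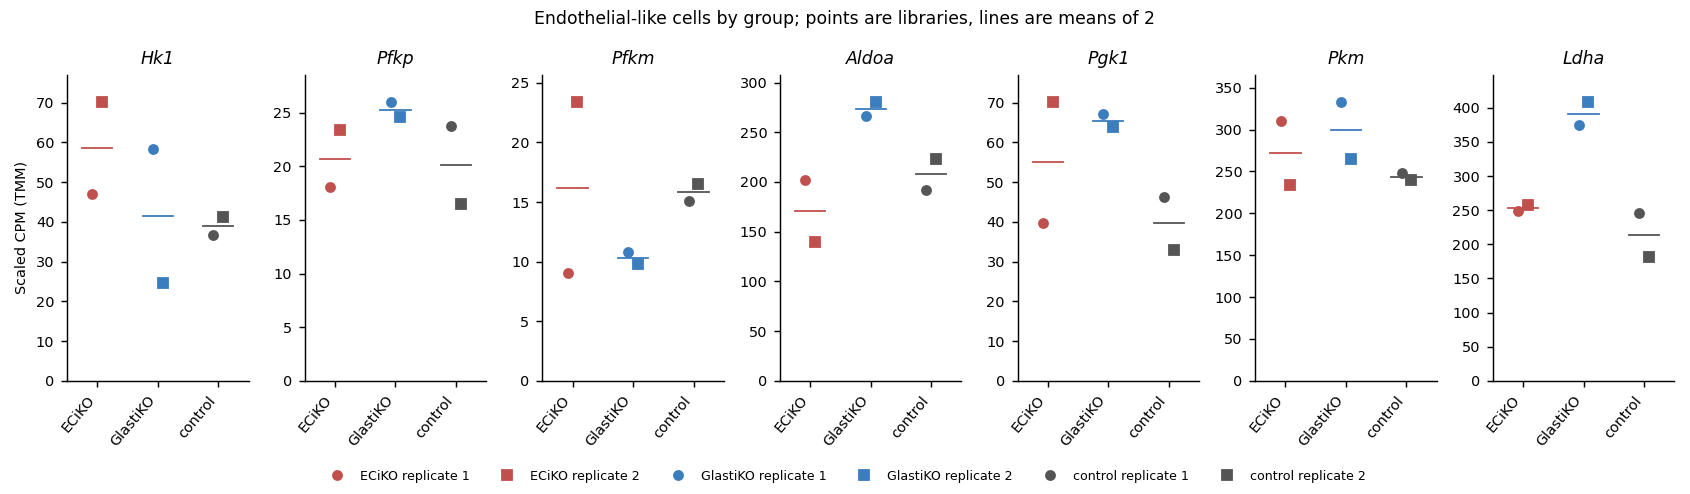
Scaled CPM (y axis, TMM) of the 7 genes tested in endothelial-like cells of ECiKO, GlastiKO and control (x axis); circles are replicates 1, squares replicates 2, and the line is the mean of 2. Ldha lies at 375 and 408 in GlastiKO, above ECiKO (249 and 257) and control (246 and 182).

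The same order of Ldha between GlastiKO and control replicate 1 was seen inside 4 endothelial-like clusters. These are parts of the same 2 libraries and add no replicate. It had 272 CPM in GlastiKO and 216 CPM in control in cluster 2, 236 and 191 CPM in cluster 3, 437 and 298 CPM in cluster 8 and 243 and 187 CPM in cluster 9. The counting intervals overlap in clusters 2, 3 and 9 and do not overlap in cluster 8. Cluster 16, with the highest Ldha, held 28 cells of GlastiKO replicate 1, 11 of ECiKO replicate 1 and 4 of control replicate 1.

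In astroglial-like cells each group had 1 library, so group values carry counting error only and no test. Over the whole class, Aldoc and Ldhb varied little. Aldoc was 1.06 times the control level in ECiKO (95% interval 0.976 to 1.14) and 1.04 times in GlastiKO (0.994 to 1.08). Ldhb was 1.04 times (0.874 to 1.22) and 1.05 times the control level (0.962 to 1.16). Pfkp stood apart, at 1.52 times the control level in ECiKO (1.16 to 1.97, from 77 and 259 UMIs) and 1.59 times in GlastiKO (1.37 to 1.86, from 476 and 259 UMIs). Pfkp was the 1 of the 10 genes whose interval left out 1, and the share of all genes with such an interval was not counted. A ratio of at least 1.5 was counted instead, among genes with at least 100 UMIs in the 2 libraries. It was seen upward in 6.06% and downward in 7.07% of 3665 genes in ECiKO. In GlastiKO it was seen in 5.63% and 3.33% of 6150 genes. Both ratios rest on the same control library.

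The astroglial-like cells of the libraries divide differently among clusters, and so Pfkp was read within them. In cluster 4, with Slc1a2 and Cspg5 among its leading genes, Pfkp had 248 CPM in ECiKO, 228 in GlastiKO and 169 in control. In cluster 7, with Gm3764 and Slc4a4 among its leading genes, it had 184, 227 and 179 CPM. In cluster 11, with Agt and Slc6a11 among its leading genes, it had 229 CPM in GlastiKO and 99.5 CPM in control, with counting intervals that do not overlap. In clusters 4 and 7 the intervals of the 3 libraries overlap, which does not show that their levels are equal. Aldoc varied by cluster, with 1594, 1130 and 1087 CPM in cluster 7 of ECiKO, GlastiKO and control, against 2311 to 2641 CPM in clusters 4 and 11. Within cluster 7 these values came from 173, 349 and 607 UMIs. The counting interval of ECiKO there does not overlap those of GlastiKO and control.

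**Figure D5:**
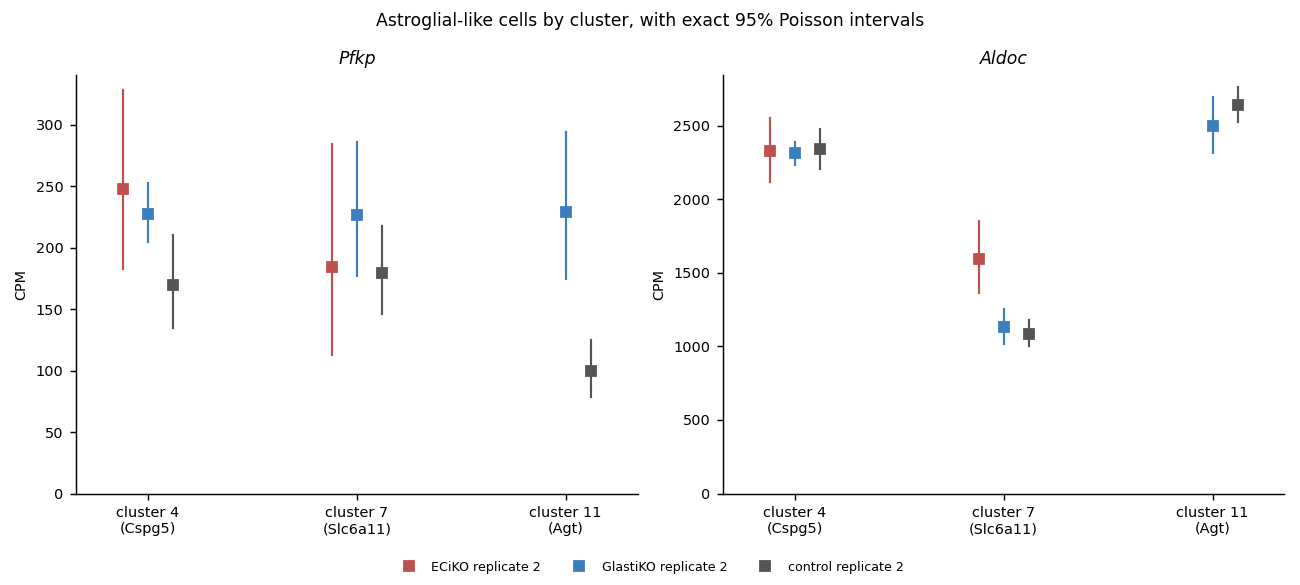
Level of Pfkp (left) and Aldoc (right) in CPM (y axis) in 3 clusters of astroglial-like cells (x axis) of the libraries numbered 2, with exact 95% Poisson intervals of counting error. Pfkp of control lies at 99.5 CPM in cluster 11 and at 169 and 179 CPM in clusters 4 and 7, and Aldoc lies lower in cluster 7 than in the other 2 clusters.

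In oligodendrocyte-like cells, again with 1 library a group, Ldha was 1.27 times the control level in ECiKO (95% interval 0.942 to 1.72) and 1.42 times in GlastiKO (1.13 to 1.79, from 242 and 112 UMIs). Aldoa was 1.12 times (1.05 to 1.19) and 1.16 times the control level (1.11 to 1.22), and Ldhb 1.29 times (1.14 to 1.45) and 1.14 times (1.03 to 1.26). None of these ratios reached 1.5, and the share of all genes whose interval left out 1 was not counted. Among genes with at least 100 UMIs in the 2 libraries, few had a ratio of at least 1.5. It was seen upward in 1.06% and downward in 1.65% of 7923 genes in ECiKO. In GlastiKO it was seen in 0.878% and 1.04% of 8887 genes. Aldoc in ECiKO was 1.44 times the control level (1.13 to 1.84), also under 1.5. Pfkp was 4.34 times the control level (1.82 to 11.5) from 19 and 8 UMIs, too few to enter those shares. With cells of at least 1000 genes alone, these ratios were 0.972 for Aldoc, 1.78 for Pfkp and 1.02 for Aldoa. In the same cells of ECiKO the choroid plexus markers summed to 758 CPM and the astroglial markers to 328 CPM, against 8.32 and 149 CPM in control. The part of those cells in the result was not tested. Of the 1922 oligodendrocyte-like cells of ECiKO, 1141 were in cluster 0 and 425 in cluster 5, whereas 267 of the 447 of control were in cluster 1 and 134 in cluster 6. Within cluster 1 Aldoc had 19.1 CPM in ECiKO and 21.1 CPM in control, Ldhb 29.7 and 41.8 CPM, and Pfkp 1.52 and 1.38 CPM from 2 and 6 UMIs. Within cluster 6 Aldoc had 19.7 CPM in ECiKO and 23.9 CPM in control, and Ldhb 244 and 182 CPM with counting intervals that do not overlap. The Ldhb intervals of cluster 1 overlap, so the value was lower in ECiKO within one cluster by less than counting error and higher within the other. Cluster 13, with Ptgds and Slc1a2 among its leading genes and made of ECiKO replicate 2 almost alone, had 342 CPM of Aldoc.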

How the data were processed

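Per the labels' protocols, single-cell 3′ libraries (10x Genomics, kit v3.1) were made and aligned to mm10 with Cell Ranger 5.0.0, and the deposited values, per the file headers, are unnormalized UMI counts for each gene in each cell. The submitters' processing notes name Cell Ranger 2.1.1 and Seurat 4, and the strand setting is not given in the sources used here. The deposited matrices hold 7433 barcodes. Cells with at least 300 genes and at most 20% mitochondrial UMIs were kept (6323), 49 doublets called by Scrublet were removed, and 5844 cells were assigned to a class whose share of detected markers was highest, with at least 3 markers and at least 2 times the next class. The gate left 430 cells unassigned (6.85%), and 230 assigned cells lay under 2.5 times. Clusters (scanpy 1.11.5, leidenalg 0.10.2) were built without the 10 genes and the other lists.

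Sums of at least 20 cells were tested with edgeR 4.0.16 (quasi-likelihood, TMM scaling, filterByExpr) on all genes, with Benjamini-Hochberg adjustment and a threshold of 0.05. The class test held 15 sums with library as a block (6 residual degrees of freedom) and the group test in endothelial-like cells 6 sums (3 degrees), so p-values rest mostly on spread pooled over genes. With that block, glial contrasts rest mainly on the endothelial-like sums of the libraries numbered 2. ECiKO replicate 1 had an endothelial-like sum alone and does not enter the class fold changes. Both were tested on simulated data: of genes changed 4-fold, 84% were recovered for astroglial-like against endothelial-like cells and 92% for GlastiKO against control. Of those changed 2-fold, 35% and 32% were. Isoenzyme shares used exact permutation over libraries, and shares and levels carry exact 95% intervals, which cover counting error only. Astroglial-like and oligodendrocyte-like cells have 1 library a group, so their ratios have no test. Alternatives were other scaling (DESeq2 1.42.0 size factors), DESeq2, no filter, a stricter gate, agreeing clusters, at least 1000 genes per cell, doublets kept, a replicate block and leaving out each library.

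The symbol Aldoa stands for 2 gene IDs, of which the second had 0 UMIs. Processed copies and paralogs (Aldoart1, Ldhal6b) had 6 and 11 UMIs, and reads they share with the members are uncertain. Genome positions are those of GENCODE M21, and promoter sequences are from RefSeq (GRCm38.p6). The genes named are the 10 members and the listed pathway genes with the largest called change in a class contrast, plus those that make up a count of at most 5. Genes most like a member were ranked by Pearson's r of log2(CPM + 1). Members and lists were chosen with earlier results of these data known.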

Additional observations from a re-analysis of the deposited data

How the results depend on the processing

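Of 576 alternatives to the members' class differences 539 kept direction and side of the threshold, and 204 of 212 group differences of members did so, none of which was past the threshold. In 110 alternatives the mean isoenzyme shares moved by at most 1 SD between libraries. Where a library was left out this was fixed in advance, since that cannot move the mean by more than 1 SD. Only the alternatives with other cell filters could have come out otherwise. Of all genes, 5006 were called between astroglial-like and endothelial-like cells (2878 to 5036 with a library left out, the lowest without GlastiKO replicate 2, and 7664 with no library block). Between oligodendrocyte-like and endothelial-like cells the count was 5650 (3556 to 5687, and 8700 with no library block), and for pericyte-like cells 3450 (1317 in libraries numbered 2). In endothelial-like cells 18 genes were called for ECiKO and 26 for GlastiKO. These became 2 and 2 with DESeq2, 1 and 9 without the Plvap-led cluster (chosen after seeing the data, with 31 of its 34 cells in control replicate 1), 4 to 33 and 3 to 32 with a library left out, and, for ECiKO, 32 in agreeing clusters and 28 at 1000 genes per cell. The deviations of same-numbered libraries had correlations of 0.0517, 0.0350 and 0.0857. Counting error lowers such correlations, and the libraries numbered 2 held few endothelial-like cells, so whether the numbers pair libraries cannot be decided. With the replicate block 32 and 38 genes were called, none a member. The causes were not tested.

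Signs turned for differences that were not called. Pkm between astroglial-like and endothelial-like cells was 0.091 with DESeq2 size factors, 0.090 with DESeq2, 0.077 with no filter, 0.037 in libraries numbered 2 and -0.12 to 0.025 with a library left out. Pfkp in pericyte-like cells was 0.094 with DESeq2 size factors, 0.080 with DESeq2, 0.063 at 1000 genes per cell and -0.49 to 0.10 with a library left out. In ECiKO, Aldoa was 0.032 in agreeing clusters, 0.093 at 1000 genes and -0.48 to 0.032 with a library left out, Pgk1 was 0.18 with DESeq2 and -0.13 to 0.70, and Pkm -0.033 to 0.37. Hk1 in GlastiKO was -0.60 to 0.66. Aldoc in oligodendrocyte-like cells of ECiKO was 0.972 times control at 1000 genes per cell, where Pfkp moved to 1.78, Pfkm to 0.237 and Aldoa to 1.02 times. Depth limits ECiKO replicate 2 most, with 37322 endothelial-like UMIs; stricter cell filters dropped it, and the lone ECiKO library is then assumed to vary like the other groups.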

Other observations

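Small cell groups of ECiKO replicate 2 carried no comparison. Its 53 choroid plexus-like cells had 1559 CPM of Ldhb, 1223 of Aldoa, 772 of Pkm, 590 of Pgk1, 297 of Ldha and 9.59 of Aldoc. Its 35 cycling progenitor-like cells had 283 CPM of Pkm, 209 of Ldhb, 164 of Pgk1 and 59.6 of Ldha, and 0 UMIs of Aldoa, Aldoc, Hk1 and Pfkp.

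Over 17 class sums, the genes whose log-scale level ran most like Aldoc were Baalc (r = 0.95), Ramp1 (0.945) and Ppp2r2b (0.938), out of 7644 genes. For Ldhb they were Rsph9 (0.962), Nudt19 (0.940) and Metrn (0.925), for Ldha Tspo (0.971), Atp7a (0.942) and Crtap (0.942), and for Aldoa Mtfr1l (0.980), Hcfc1r1 (0.958) and Yipf1 (0.952). The sums share libraries and depth, and these values are descriptions.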
